A study of Mus musculus with 50 samples.

Results

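Macrophage transcripts in mammary gland (MG) tumors were followed through 9 genes: Csf1, Csf1r, Cd68, Lyz2, C1qa, C1qb, Mrc1, Cd163 and F13a1. These are 9 of the 37701 genes in the expression table, taken by their gene symbols, and all 9 were among the 16733 genes tested, those with a mean RPKM (reads scaled to transcript length and library size) of at least 0.5. F13a1 was chosen by its measured values, namely a higher level in insulin tumors than in vehicle tumors. Its differences from vehicle are therefore given as a description, with no test, in every comparison that holds vehicle or insulin tumors, and only the other 8 genes were tested there. The 50 tumors came from female p53R270H/+WAPCre mice, 8 weeks old at the start, which carry a p53 allele with the R270H mutation that Cre, driven by the promoter of the milk gene Wap, switches on in mammary epithelium. The 5 groups of 10 tumors differed in what was injected under the skin every other day until a tumor formed, namely vehicle, insulin, the insulin analogue glargine, the insulin analogue X10, or insulin-like growth factor 1 (IGF1). Each mouse gave 1 tumor, taken at 1 cm3 and 24 h after the last injection, and poly-A RNA of a whole piece of tumor was sequenced. The study had picked tumors of mesenchymal appearance with a latency near the median of their group, and the sample titles call the vehicle group untreated.

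Macrophages take up and digest dying cells, microbes and debris, and in the mammary gland they also live between the ducts and around fat. Their survival depends on the receptor CSF1R and its ligands CSF1 and IL-34. Cd68 and Lyz2 encode proteins of the lysosome and its secretions. C1qa and C1qb encode chains of C1q, the recognition molecule of the classical complement pathway, which macrophages make in large amounts. Mrc1 (CD206, a mannose receptor), Cd163 (the receptor for haemoglobin bound to haptoglobin) and F13a1 (the A subunit of clotting factor XIII, a transglutaminase that crosslinks fibrin) are known from tissue-resident and alternatively activated macrophages, and F13a1 also from platelets. Whole tumor pieces were sequenced. Fewer macrophages, less RNA of a gene per macrophage and less of its RNA from other cells therefore cannot be told apart in any value below.

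The 9 genes were set beside 16 macrophage markers that include none of them (Emr1, Fcgr1, Mertk, Cd14, C1qc, Tyrobp, Aif1, Ctss, Cybb, Mpeg1, Fcer1g, Lgmn, Trem2, Fcgr3, Sirpa and Laptm5). Expression of these markers does not by itself show that the 9 genes come from macrophages. Across tumors the median Pearson's r to them, described further below, was 0.79 for C1qb. It was only 0.27 for Csf1, 0.23 for Cd163 and -0.07 for Cd68. All 16 were expressed, with means over the 50 tumors from 6.90 RPKM for Mertk to 596 RPKM for Laptm5, and their summed level ran from 1093 to 4591 RPKM in vehicle, 1332 to 5357 in insulin, 1942 to 3972 in glargine, 1575 to 3330 in X10 and 2106 to 5049 RPKM in IGF1 tumors. Some tumors stood apart. The vehicle tumor titled Untreated_161 had the lowest value of 6 of the 9 genes (and the highest vehicle value of Csf1), and the tumor IGF1_158 the highest value of 6. Another 5 tumors (the vehicle tumors Untreated_174, Untreated_182 and Untreated_195 and the tumors X10_105 and X10_111) carried a high level of epithelial keratins and cadherin. Library sizes, estimated from the smallest steps between RPKM values, were 26.6 to 51.9 M reads, so that F13a1 rested on an estimated 722 reads in its lowest tumor, whereas Cd163 rested on about 8.49 reads in its lowest tumor and a median of 366.

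Promoter sequence is shown for F13a1, for Mrc1, the member that varied most closely with it, and for C1qb, a chain of C1q. The RefSeq promoter table (build GRCm38.p6) held 8 entries for 7 of the 9 genes, with 2 start sites for F13a1. Csf1r and C1qa had no entry. The 250 bases before the first listed start are given 5′ to 3′ on the strand of the gene, in lower case with capitals where GAGGAA, the core of sites bound by the macrophage factor PU.1, matches on either strand (as TTCCTC on the other one). The stretches are chr13:37050245-37050494 on the minus strand for F13a1, chr2:14229164-14229413 on the plus strand for Mrc1 and chr4:136886201-136886450 on the minus strand for C1qb.
F13a1: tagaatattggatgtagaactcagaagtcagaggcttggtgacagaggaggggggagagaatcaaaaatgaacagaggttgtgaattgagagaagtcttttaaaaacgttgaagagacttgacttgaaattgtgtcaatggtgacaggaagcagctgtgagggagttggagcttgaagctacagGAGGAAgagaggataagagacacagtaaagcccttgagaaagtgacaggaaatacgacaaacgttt
Mrc1: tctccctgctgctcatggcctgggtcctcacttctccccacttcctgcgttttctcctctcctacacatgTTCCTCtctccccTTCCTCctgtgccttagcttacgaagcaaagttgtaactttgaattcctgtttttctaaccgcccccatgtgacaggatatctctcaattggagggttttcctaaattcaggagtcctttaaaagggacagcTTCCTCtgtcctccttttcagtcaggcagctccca
C1qb: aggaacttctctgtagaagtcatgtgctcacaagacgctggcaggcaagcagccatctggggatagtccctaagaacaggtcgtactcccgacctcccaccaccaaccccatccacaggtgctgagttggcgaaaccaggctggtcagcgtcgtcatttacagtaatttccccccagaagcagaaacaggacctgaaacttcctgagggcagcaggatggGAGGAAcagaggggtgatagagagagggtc
F13a1 held 1 match, whose first letter lies 66 bases before the start, and its second listed start had no match. Mrc1 held 3 matches, at 180, 167 and 35 bases, all on the opposite strand, and C1qb held 1 match at 30 bases. Cd68 also had 1 match, so that 4 of the 7 genes held the motif. Counted by entry, 4 of their 8 entries held it, and 23.3% of all 32851 listed promoters did. The letters TGANTCA, bound by AP-1 factors and read on both strands, were found in 1 of the 7 genes, Cd68. Counted by entry, 6.75% of all promoters held them.

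Levels differed widely between the genes on the RPKM scale, which is per transcript length. Lyz2 was the highest, with a median of 1123 RPKM over the 50 tumors, followed by C1qa (466) and C1qb (383), while Csf1 (119), Cd68 (96.4), Csf1r (96.3), Mrc1 (71.4) and F13a1 (28.9) lay lower and Cd163 (1.62) was near the lower end of what was tested. The spread between tumors also differed. The highest tumor exceeded the lowest 5.34-fold for Lyz2, 7.52-fold for Csf1r and 7.62-fold for Cd68, but 41.9-fold for Mrc1, 47.7-fold for F13a1 and 255-fold for Cd163, whose lowest tumor rests on few reads. The SD of log2 values over all tumors was 0.64 to 1.19 for the 9 genes, against a median of 0.42 over all genes tested. Treatment accounted for 28.2% of the variance of Mrc1, for 17.9% of that of C1qb and for 7.29% of that of Cd68, where the median over all genes was 9.29%. For F13a1 the share was 38.4%, part of which its selection fixes.

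**Figure D1:**
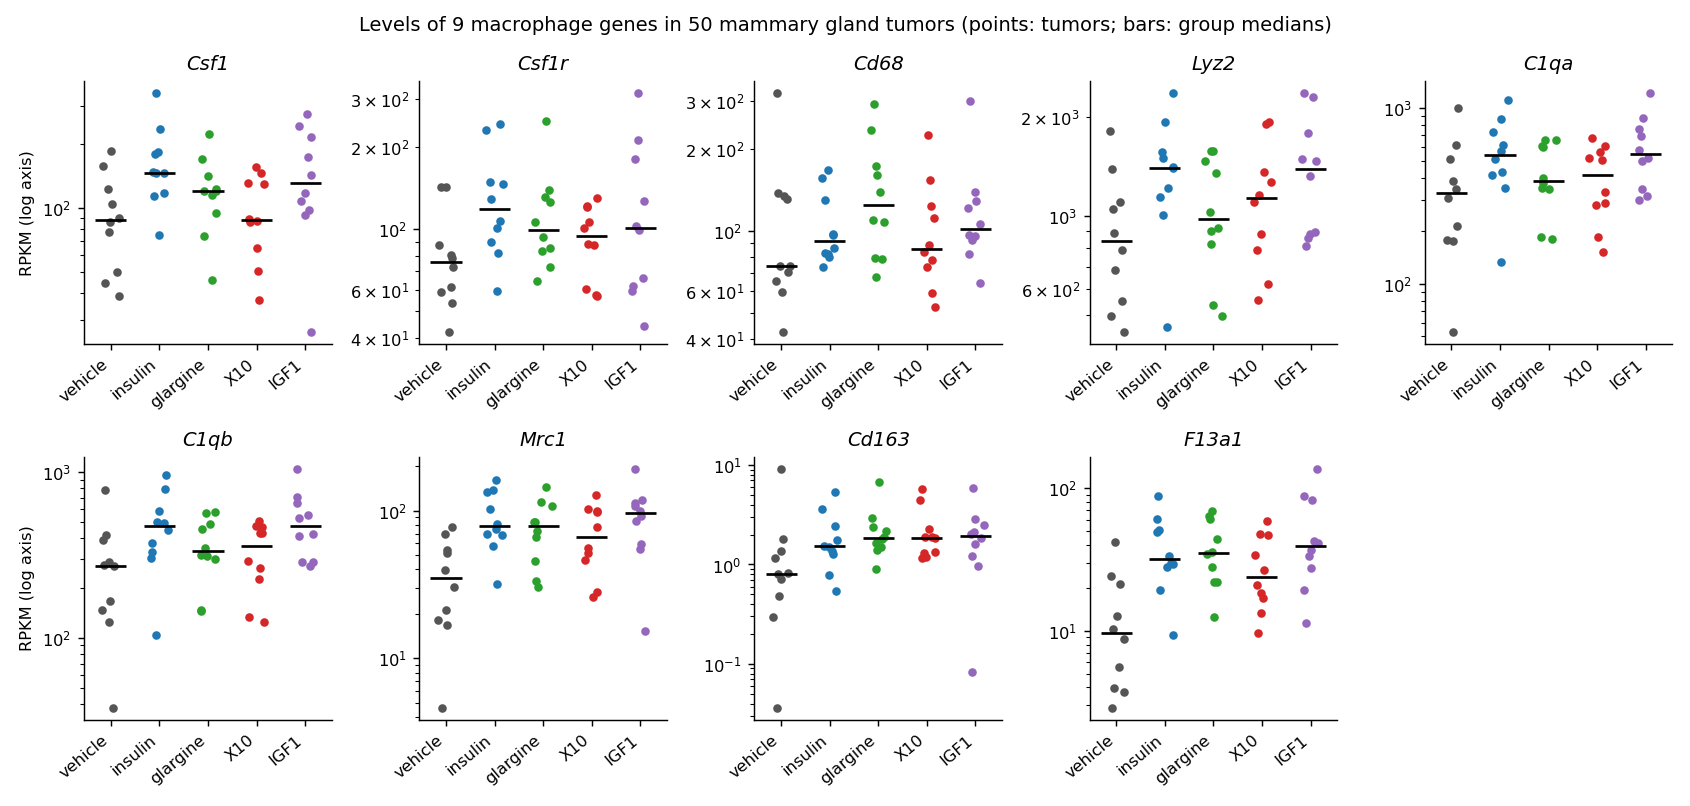
RPKM of the 9 genes (log axis) in each of the 50 tumors by treatment group; bars are group medians. The vehicle median is the lowest of the 5 for all 9 genes (nearly level with that of X10 for Csf1), and in every panel the groups overlap.

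F13a1 (chr13:36867178-37050244, GRCm38, minus strand) had its lowest levels in vehicle tumors. Its values in vehicle tumors were 2.87 RPKM at the lowest, 9.57 at the median and 42.0 at the highest. Insulin tumors ranged from 9.29 to 87.7 RPKM around a median of 31.8, the difference for which the gene was selected. Glargine tumors ran from 12.4 to 68.9 RPKM with a median of 34.9. In X10 tumors the range was 9.62 to 58.6 RPKM with a median of 23.8, and in IGF1 tumors 11.4 to 137 RPKM with a median of 39.0. In the insulin group 9 of 10 tumors lay above the vehicle median, and in each of the other treated groups 10 of 10 did, but only 3 or 4 tumors of each group exceeded the highest vehicle tumor. On the scale of log2(RPKM + 0.5) the difference from vehicle was 1.76 with insulin and 1.79 with glargine, and 1.34 with X10 and 2.03 with IGF1, all against the same vehicle tumors. Ordered by mean log2 level, the groups ran vehicle (3.35), X10 (4.68), insulin (5.11), glargine (5.13) and IGF1 (5.38). The neighbours X10 and insulin, insulin and glargine, and glargine and IGF1 differed by 0.43, 0.03 and 0.24, less than the SD within any group (0.78 to 1.22). Among glargine, X10 and IGF1 tumors, which had no part in the choice of the gene, F13a1 did not pass the test for any difference (adjusted p = 0.685, moderated F-test of limma with Benjamini-Hochberg adjustment over all genes).

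Mrc1 (chr2:14229392-14332057, GRCm38, plus strand) had its lowest group median in vehicle tumors. Those tumors held 4.6 RPKM at the lowest, 34.8 at the median and 77.3 at the highest, and insulin tumors 31.9, 78.6 and 162.2. In glargine tumors the values were 30.2, 78.2 and 146 RPKM. In X10 tumors they were 25.9, 66.5 and 127.7 RPKM, and in IGF1 tumors 15.2, 96.0 and 193 RPKM. Above the highest vehicle tumor lay 5 of 10 tumors with insulin, glargine and X10 and 7 of 10 with IGF1, though each range overlapped that of vehicle. By limma the log2 fold change was 1.47 with insulin (SE 0.39, adjusted p = 0.198) and 1.21 with glargine (adjusted p = 0.783). It was 1.05 with X10 (adjusted p = 0.314) and 1.40 with IGF1 (adjusted p = 0.277), with the same SE, so none passed 0.05. Without the tumor Untreated_161 these differences were 1.18, 0.92, 0.77 and 1.116. With the mean level of the 16 macrophage markers as a covariate they were 0.79, 0.85, 0.74 and 0.67.

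Cd163, the remaining scavenger receptor, was expressed at a low level. Its vehicle tumors ran from 0.036 to 9.18 RPKM around a median of 0.809, insulin tumors from 0.542 to 5.33 around 1.52, and glargine tumors from 0.906 to 6.76 around 1.85. X10 tumors had 1.15, 1.86 and 5.80 RPKM at the lowest, median and highest, and IGF1 tumors 0.083, 1.93 and 5.82. The highest vehicle tumor exceeded every treated tumor, so the groups overlapped, although 10 of 10 glargine and 10 of 10 X10 tumors lay above the vehicle median. Log2 fold changes were 0.55, 0.76, 0.75 and 0.56 for insulin, glargine, X10 and IGF1 (SE 0.36, adjusted p by limma 0.584, 0.789, 0.446 and 0.718). They depend on the value added before the logarithm, being 0.86, 1.14, 1.117 and 0.80 with 0.1 in place of 0.5. They were 0.39, 0.59, 0.58 and 0.39 without Untreated_161, 0.86, 1.07, 1.14 and 0.87 without the 5 tumors of high epithelial marker level, and 0.31, 0.63, 0.64 and 0.30 with the macrophage markers as a covariate.

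Csf1 and Csf1r both had their highest group median in insulin tumors, with overlapping ranges. Csf1, the ligand, had 38.9, 87.6 and 185 RPKM at the lowest, median and highest in vehicle tumors and 74.4, 146.6 and 345 in insulin tumors. In glargine tumors it had 46.1, 120 and 222 RPKM, in X10 tumors 37.0, 87.6 and 156, and in IGF1 tumors 26.2, 130 and 274. The groups overlapped, and X10 and vehicle tumors had nearly the same median. The log2 fold change was 0.87 for insulin (SE 0.32, adjusted p = 0.342 by limma), and 0.42, 0.07 and 0.57 for glargine, X10 and IGF1. Without Untreated_161, the highest vehicle tumor for this gene, the 4 differences of Csf1 were 0.99, 0.54, 0.19 and 0.70, without the 5 tumors of high epithelial marker level 0.62, 0.17, 0.08 and 0.33, and with the macrophage markers as a covariate 0.62, 0.28, -0.0448 and 0.30. Csf1r, the receptor, had 41.9, 75.5 and 142 RPKM in vehicle tumors and 59.6, 118.02 and 243 in insulin tumors. Glargine tumors had 64.5, 99.5 and 249 RPKM of it, X10 tumors 56.7, 94.4 and 130, and IGF1 tumors 44.3, 101 and 315. Its log2 fold change was 0.68 for insulin (SE 0.28, adjusted p = 0.370 by limma) and 0.48, 0.22 and 0.46 for the others. The 4 differences of Csf1r were 0.58, 0.38, 0.13 and 0.37 without Untreated_161 and 0.21, 0.23, 0.0086 and -0.0384 with the macrophage markers as a covariate. Il34, the other ligand of the receptor and no member of the 9, had group medians from 45.8 RPKM in vehicle to 84.1 RPKM in insulin tumors, so that both ligands were present in every group.

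Cd68 had its highest group median in glargine tumors. This lysosomal glycoprotein had 42.3, 73.9 and 322 RPKM at the lowest, median and highest in vehicle tumors, 73.8, 91.4 and 167 in insulin tumors and 67.8, 124.2 and 294 in glargine tumors. X10 tumors had 52.4, 86.0 and 226 RPKM and IGF1 tumors 64.3, 101 and 301. Above the vehicle median lay 9 of 10 tumors with insulin, glargine and IGF1 and 7 of 10 with X10, but the highest tumor of all was a vehicle tumor. Log2 fold changes were 0.12, 0.47, 0.03 and 0.26 for insulin, glargine, X10 and IGF1 (SE 0.28, adjusted p by limma 0.916, 0.811, 0.980 and 0.879), and without the 5 tumors of high epithelial marker level they were -0.149, 0.21, -0.0392 and -0.00250. They were 0.18, 0.53, 0.09 and 0.32 without Untreated_161, and 0.08, 0.45, 0.02 and 0.22 with the macrophage markers as a covariate. Lyz2, lysozyme of macrophages and neutrophils, had 442, 838 and 1814 RPKM in vehicle tumors and 458, 1397 and 2354 in insulin tumors. Glargine tumors had 495, 974 and 1573 RPKM, X10 tumors 553, 1129 and 1929, and IGF1 tumors 808, 1389 and 2359. In both the insulin and the IGF1 group 9 of 10 tumors lay above the vehicle median, with overlapping ranges. Its log2 fold changes were 0.63, 0.24, 0.35 and 0.65 (SE 0.27, adjusted p by limma 0.387, 0.907, 0.653 and 0.457). They were 0.53, 0.14, 0.25 and 0.55 without Untreated_161, the lowest tumor, and 0.087, -0.0464, 0.10 and 0.058 with the macrophage markers as a covariate. Lyz1 is a close copy of Lyz2 on the same chromosome, so how reads were divided between the pair is uncertain, and the mean level of Lyz1 was 26.7 RPKM.

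The C1q chains had their highest group medians in IGF1 and insulin tumors. C1qb had 37.7, 274 and 783 RPKM at the lowest, median and highest in vehicle tumors, 104.8, 471 and 965 in insulin tumors and 144.9, 333 and 578 in glargine tumors. X10 tumors had 125, 361 and 508 RPKM and IGF1 tumors 273, 477 and 1052. In the IGF1 group 9 of 10 tumors lay above the vehicle median, and only 1 of them exceeded the highest vehicle tumor. Log2 fold changes of C1qb were 0.92, 0.57, 0.42 and 1.08 for insulin, glargine, X10 and IGF1 (SE 0.37, adjusted p by limma 0.365, 0.827, 0.703 and 0.374). Those of C1qa were 0.79, 0.44, 0.33 and 0.92 (SE 0.37), with group medians of 326 RPKM in vehicle, 538 in insulin, 385 in glargine, 416 in X10 and 549 in IGF1 tumors. Without the lowest tumor, Untreated_161, the differences of C1qb were 0.64, 0.28, 0.14 and 0.79 and those of C1qa 0.51, 0.17, 0.06 and 0.65. With the macrophage markers, which include C1qc, as a covariate they were 0.13, 0.14, 0.06 and 0.22 for C1qb and 0.0094, 0.025, -0.0266 and 0.081 for C1qa. Without the 5 tumors of high epithelial marker level they were 1.03, 0.67, 0.59 and 1.18 for C1qb and 0.93, 0.58, 0.54 and 1.07 for C1qa. Both genes lie close together on chromosome 4 (C1qb at chr4:136880129-136886187 and C1qa at chr4:136895917-136898803, GRCm38), and the ratio of C1qa to C1qb stayed between 1.09 and 1.46 in all 50 tumors.

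Of the 8 genes tested, 0 passed an adjusted p of 0.05 in any of the 4 comparisons with vehicle, by limma on log values. Over all 16733 genes 0% passed with insulin, 0% with glargine, 0.0657% with X10 and 0.00598% with IGF1. At an unadjusted p under 0.05, 6 of 8 were higher with insulin (Csf1, Csf1r, Lyz2, C1qa, C1qb and Mrc1), against 5.98% of all genes, and 0 were lower, against 5.17%. With glargine 2 of 8 were higher (Mrc1 and Cd163), against 3.31% of all genes, and 0 lower, against 2.92%. The same 2 were higher with X10, against 2.75%, and 0 lower, against 8.25%. With IGF1 4 of 8 were higher (Lyz2, C1qa, C1qb and Mrc1), against 4.49%, and 0 lower, against 4.34%. These counts were 6, 2, 2 and 4 also by limma-voom on estimated reads, where again 0 passed the adjusted threshold, and 3, 1, 1 and 3 without the tumor Untreated_161. With the mean level of the 16 macrophage markers as a covariate they were 1 in each comparison. The median log2 fold change of the 8 was 0.73, 0.48, 0.34 and 0.61, where that of all genes was 0.03, 0.02, -0.03 and 0.02, and without Untreated_161 it was 0.56, 0.46, 0.17 and 0.60. With the macrophage markers as a covariate it was 0.17, 0.26, 0.04 and 0.22. All 4 comparisons use the same 10 vehicle tumors, and the 8 genes are correlated with each other, so the counts are not separate pieces of evidence.

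**Figure D2:**
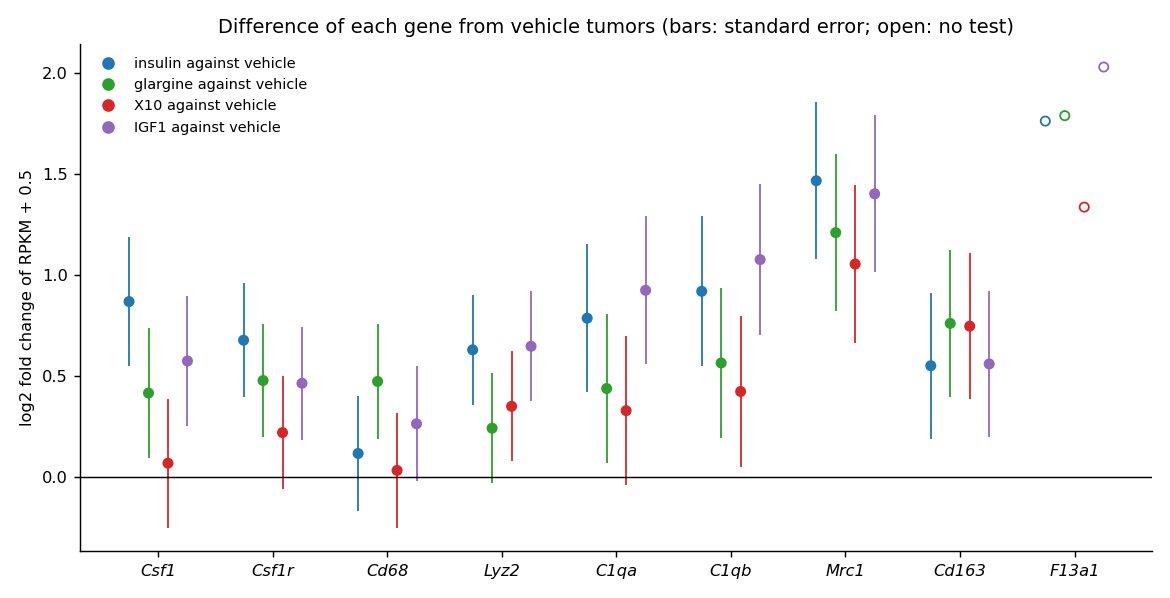
Log2 fold change of RPKM + 0.5 against vehicle for each gene and treatment; bars are standard errors and open symbols mark F13a1, which has no test. All values lie above 0, and Mrc1 and F13a1 lie above 1 with every treatment.

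X10 and IGF1 bind the IGF1 receptor with high affinity, and the study set their tumors against the rest. In the comparison of X10 and IGF1 tumors with vehicle, insulin and glargine tumors, 0 of 8 genes passed the adjusted threshold in limma (0.155% of all genes did), and 0 of 8 were higher (2.97% of all genes) or lower (7.57%) at an unadjusted p under 0.05. Log2 differences of the 8 ran from -0.11 for Csf1 (SE 0.21) to 0.34 for Mrc1 (SE 0.25, adjusted p = 0.715 by limma), and F13a1, with no test, was 0.50 higher. Without Untreated_161 the 8 ran from -0.07 for Csf1r to 0.24 for Mrc1, with Csf1 at -0.06 and C1qa at 0.13 in place of 0.22. Among glargine, X10 and IGF1 tumors, 0 of 9 genes passed the test for any difference (0.251% of all genes) and 0 of 9 had an unadjusted p under 0.05 (12.4% of all genes). The widest gaps between these 3 group means were for F13a1 and C1qb, 0.69 and 0.65 higher with IGF1 than with X10 on the log2 scale, neither past the test (adjusted p = 0.685 and 0.629 by limma). In a single test over the 5 groups, 0 of 8 genes passed (0.102% of all genes), and 2 of 8, Mrc1 and C1qb, had an unadjusted p under 0.05 (13.1% of all genes).

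The 9 genes did not vary as one. Of the 28 pairs without F13a1, 17 were correlated across the 50 tumors at an adjusted p under 0.05 (Pearson's r on log2 values, two-sided permutation test with 100000 resamples, Benjamini-Hochberg over the 28 pairs), all 17 positively. The share of all gene pairs that would pass such a test was not computed. With values centred within each treatment group, the median r of single members to all genes tested ran from -0.05 for Cd68 to 0.09 for Mrc1. The 8 pairs of F13a1 are given with no test, since the gene was chosen on these tumors. C1qa and C1qb rose and fell nearly in step (r = 0.99, rho = 0.98, adjusted permutation p = 2.33e-05 and 2.8e-05, r = 0.99 without the 2 tumors farthest from the median of C1qa). Lyz2 followed both, with r = 0.86 to C1qa (rho = 0.87, adjusted permutation p = 2.33e-05 and 2.8e-05, r = 0.84 without 2 tumors). Mrc1 was correlated with C1qb as well (r = 0.76, rho = 0.68, adjusted permutation p = 2.33e-05 and 2.8e-05, r = 0.67 without 2 tumors). The raw p of these pairs, 1e-05, is the smallest that the resamples can give. Between F13a1 and Mrc1 r was 0.86 (rho = 0.89). Because both were low in vehicle tumors, the values were also centred within each group, which gave r = 0.80, and within the single groups r ran from 0.69 in insulin to 0.92 in glargine tumors, each over 10 tumors.

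Between F13a1 and Cd163 r was 0.66 (rho = 0.67), and 0.65 with values centred within groups. With C1qb its r was 0.59 and with C1qa 0.53 (rho = 0.56 and 0.48). Csf1 and Csf1r, ligand and receptor, varied together as well (r = 0.75, rho = 0.71, adjusted permutation p = 2.33e-05 and 2.8e-05, r = 0.72 without 2 tumors). Cd68 shared that variation, with r = 0.52 to Csf1 and 0.55 to Csf1r (rho = 0.53 and 0.59), but its correlations with the C1q chains, Lyz2 and Mrc1 did not pass the threshold, and r ran there from -0.07 to 0.02 (adjusted permutation p 0.689 to 0.973). Within single groups of 10 tumors these values differed in sign, as for Cd68 and C1qb, where r was 0.66 in IGF1, -0.25 in vehicle, -0.04 in insulin, -0.31 in glargine and -0.44 in X10 tumors.

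**Figure D3:**
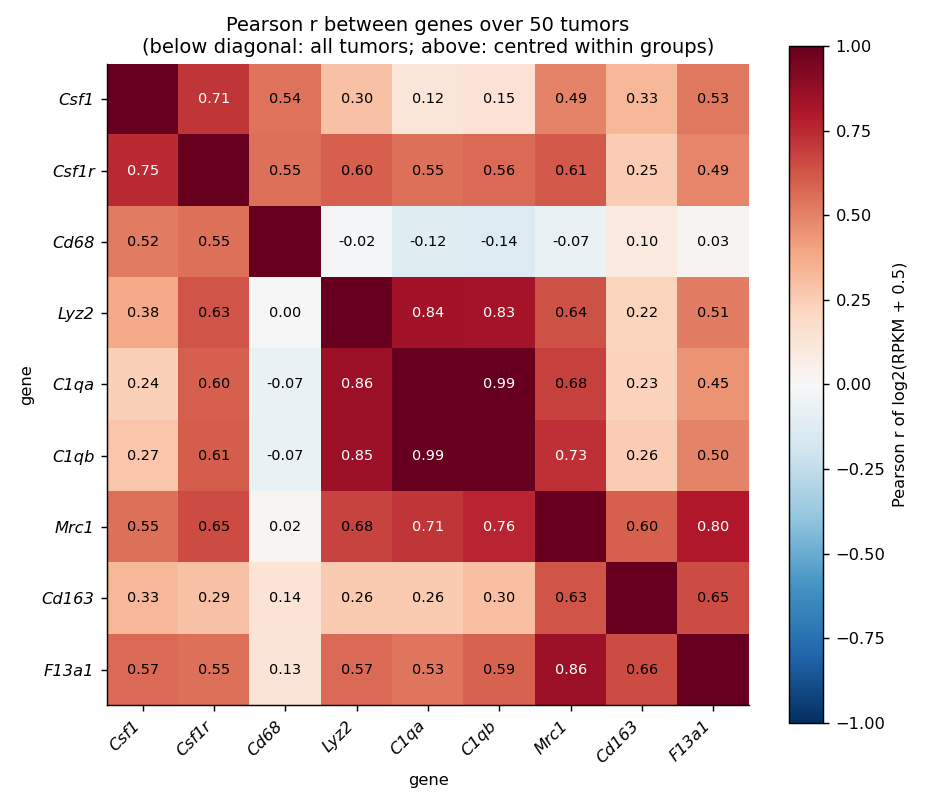
Pearson r between the 9 genes on log2(RPKM + 0.5), below the diagonal over all 50 tumors and above it after centring within treatment groups. The C1qa, C1qb and Lyz2 block (0.83 to 0.99) and the F13a1 and Mrc1 pair (0.86 and 0.80) stand out, and the Cd68 values are pale toward the C1q chains.

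**Figure D4:**
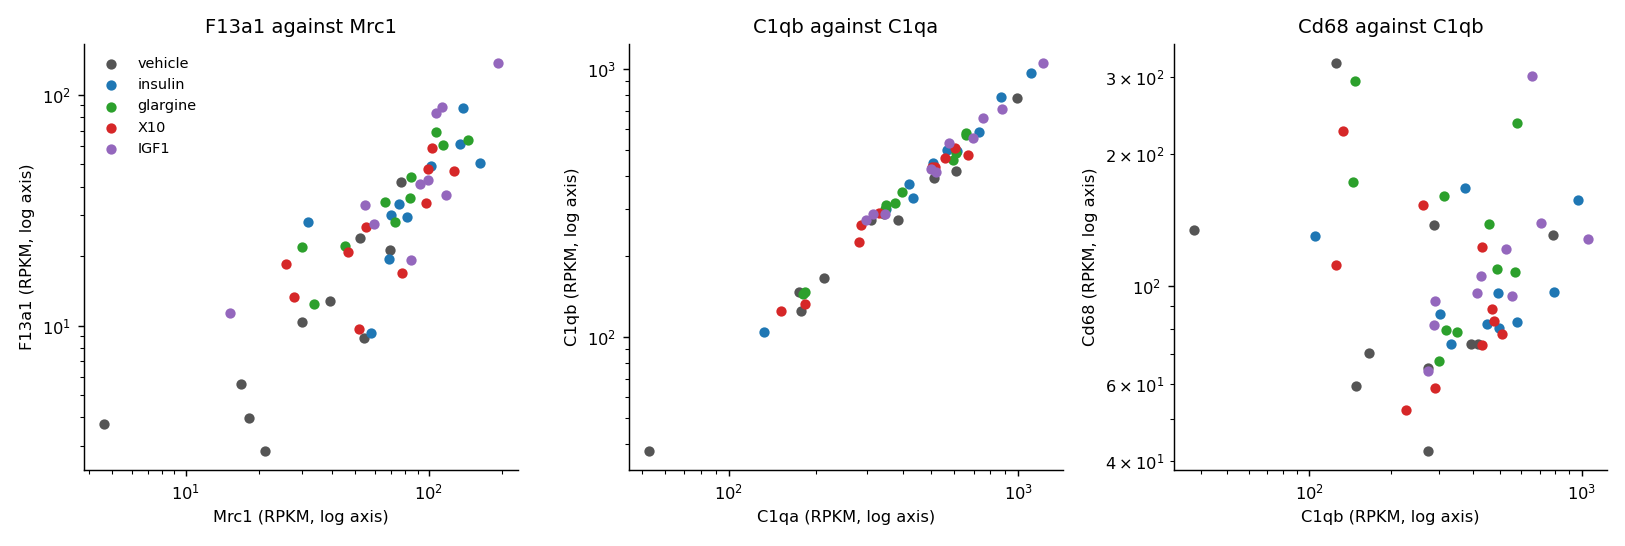
Values of 3 gene pairs in each of the 50 tumors, coloured by treatment group, on log axes in RPKM. F13a1 rises with Mrc1 (r = 0.86) and C1qb with C1qa (r = 0.99), while Cd68 and C1qb form a broad cloud (r = -0.07).

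The genes most alike each member over all 16733, by Pearson's r on log2 values centred within groups over 50 tumors, are given as a description. For F13a1 they were Folr2 (folate receptor beta, r = 0.82), Nxpe5 (0.81), Cbr2 (a carbonyl reductase, 0.81), Mrc1 (0.80), Stard8 (0.78), Gm11771 (0.73), Hfe (a regulator of iron uptake, 0.70), Stab1 (the scavenger receptor stabilin-1, 0.70), Npl (0.70) and Reps2 (0.70). Folr2, Cbr2, Mrc1 and Stab1 were on a list of 31 scavenger and resident-type macrophage genes of which F13a1 is itself a member. Of the members, Mrc1 held rank 4 and Cd163 rank 28 in likeness to F13a1, while Cd68 held rank 8643. Mrc1 was most like Stard8 (0.93), Hfe (0.89) and Emr1 (F4/80, 0.89), and Cd163 most like Tmem8 (0.74), Lyve1 (the hyaluronan receptor of resident macrophages and lymphatic vessels, 0.66) and F13a1 (0.65). C1qa and C1qb were most like each other and C1qc, followed by Pld4 (0.96) for C1qa and P2ry6 (0.97) for C1qb. Lyz2 was most like Lyz1 (0.89), Ncf1 (a subunit of the phagocyte oxidase, 0.88) and Tbxas1 (0.87). Csf1r was most like Laptm5 (a lysosomal protein of blood cells, 0.89), Zfp710 (0.89) and Prex1 (0.88), and Csf1 most like Pid1 (0.85), Itsn1 (0.78) and Itgam (the integrin CD11b, 0.77).

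Cd68 had other companions. Cd68 was most like the sugar-phosphate transporter gene Slc37a2 (0.92), Mfsd12 (0.92) and the creatine kinase gene Ckb (0.88). For C1qb the median r to the macrophage markers was 0.79, for Lyz2 0.72, for Mrc1 0.68, for Csf1r 0.61, for F13a1 0.43, for Csf1 0.27, for Cd163 0.23 and for Cd68 -0.07. The range for Cd68 was wide, from -0.26 (Fcgr3) to 0.70 (Tyrobp). It was also wide for other members, from -0.11 to 0.89 for Mrc1 and from -0.08 to 0.89 for Csf1r. These correlations share libraries and sequencing depth, and C1qc is one of the 16.

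F13a1 was next expressed relative to the 16 macrophage markers, as its log2 level minus their mean log2 level in the same tumor, with no test. Vehicle tumors had -4.45 at the lowest, -2.82 at the median and -1.26 at the highest. Insulin tumors had -3.62, -1.67 and -0.42, and glargine tumors -2.003, -1.40 and -0.36. X10 tumors had -3.45, -1.38 and -0.93, and IGF1 tumors -2.53, -1.47 and -0.47. The group means lay 1.25 (insulin), 1.53 (glargine), 1.10 (X10) and 1.47 (IGF1) above vehicle. Relative to Csf1r, Cd68, C1qa and C1qb the differences were 1.14, 1.30, 1.08 and 1.35.

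**Figure D5:**
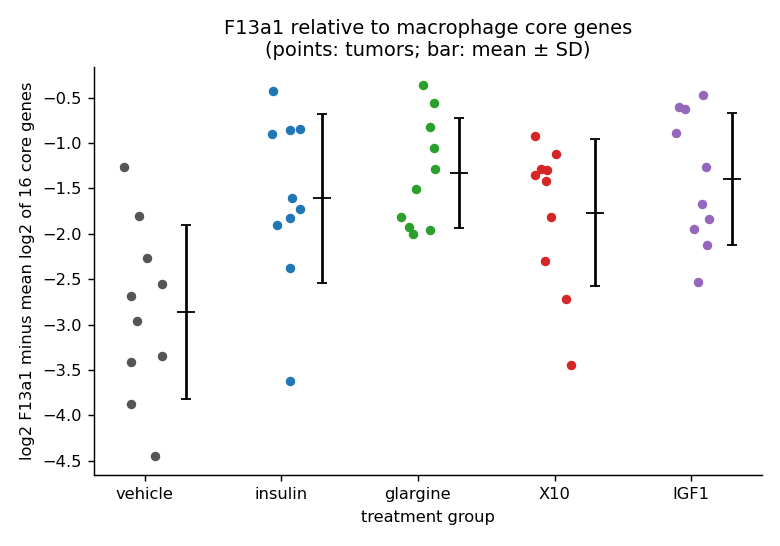
Log2 level of F13a1 minus the mean log2 level of 16 macrophage markers in each tumor, by treatment group; bars are mean ± SD of 10 tumors. The vehicle mean (-2.86) is the lowest, and its spread (SD 0.96) overlaps that of each treated group.

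Other genes of the same pathways were read from lists, with the 9 members left out of all list counts and medians. Over all genes, the shares higher at an unadjusted p under 0.05 were 5.98%, 3.31%, 2.75% and 4.49% with insulin, glargine, X10 and IGF1, and the shares lower 5.17%, 2.92%, 8.25% and 4.34%. Of 28 further scavenger and resident-type genes tested, 0 passed the adjusted threshold in any comparison with vehicle by limma. At an unadjusted p under 0.05, 7 were higher with insulin, 10 with glargine, 5 with X10 and 7 with IGF1, and 0 were lower in each. Their median log2 fold changes were 0.68, 0.70, 0.56 and 0.43. The most abundant were Sepp1 (selenoprotein P, mean 822 RPKM), Stab1 (228) and Ccl6 (141). Folr2, Cbr2 and Stab1 of this list are among the genes most alike F13a1, which was itself selected on insulin against vehicle. As all list counts also use the same 10 vehicle tumors, they are not separate pieces of evidence. The unadjusted list counts were not recomputed without the tumor Untreated_161. Of 20 inflammatory macrophage genes, among them Vcan (155 RPKM), Ccl2 (90.1) and Il1b (77.1), 0 passed, 2, 0, 0 and 1 were higher at the unadjusted threshold and 0, 1, 0 and 1 lower. Their medians were -0.07, -0.40, -0.24 and -0.23, below those of all genes. With values centred within groups, their r to Csf1r ran from -0.49 for Il1b to 0.70 at the highest. To Lyz2 it ran from -0.39 for Vcan to 0.77 at the highest. Which cells carried the RNA of this list was not tested. Of 18 complement genes beside C1qa and C1qb, led by C3 (481 RPKM), 0 passed and 5, 1, 2 and 4 were higher and 0, 0, 0 and 1 lower at the unadjusted threshold, with medians of 0.35, 0.28, 0.10 and -0.09.

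The 12 other genes of the CSF1 axis, with the transcription factor gene Spi1 (PU.1, 131 RPKM) as the most abundant, had 0 calls and 3, 0, 0 and 2 genes higher and 1, 1, 0 and 0 lower at the unadjusted threshold, and medians of 0.33, 0.03, 0.01 and 0.08. Of the transglutaminase and clot protein list, 10 genes were tested beside F13a1 and 0 were called or higher at the unadjusted threshold with any treatment, and 1, 2, 0 and 1 were lower. The medians were -0.06, -0.18, 0.06 and -0.36. Its most abundant genes were Fn1 (fibronectin, 677 RPKM), Tgm2 (158.1) and Plau (98.8), while F13b, the carrier subunit of factor XIII, averaged 0.199 RPKM and the fibrinogen genes Fga, Fgb and Fgg 0.0356, 0.479 and 0.350 RPKM, below the filter. Of 14 lysosome genes beside Cd68 and Lyz2, led by Ctsd (860 RPKM) and Grn (671), 0 were called, 1, 1, 0 and 3 were higher and 2, 2, 2 and 1 lower at the unadjusted threshold, and several of these counts are near the shares over all genes. Among the 16 macrophage markers 0 were called and 6, 2, 1 and 7 were higher, with medians of 0.53, 0.25, 0.23 and 0.50. Lists share genes, as Lgmn and Ctss are also on the lysosome list and C1qc on the complement list. Their counts therefore overlap.

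Markers of other cells that could carry these transcripts were given beside them. With epithelial, adipocyte and muscle scores as covariates, the median log2 fold change of the 8 tested members was 0.67, 0.39, 0.33 and 0.67. It was 0.73, 0.48, 0.34 and 0.61 in the main fit. The part of the other cell types in the differences was not tested. The 7 platelet and megakaryocyte genes summed to 14.1 to 256 RPKM in vehicle and 26.4 to 210 RPKM in treated tumors, most of it from Pf4 (mean 62.1 RPKM), which macrophages also express. Itga2b averaged 12.3 RPKM and Ppbp 5.45, Gp1bb had group means of 0.703 to 1.02 RPKM, and Gp9, Gp1ba and Gp6, below the filter, averaged 0.122, 0.0824 and 0.0374 RPKM. Of the 4 that passed the filter 0 were called, and 1 was higher at the unadjusted threshold, with IGF1. The 10 neutrophil markers summed to 35.6 to 2780 RPKM in vehicle tumors (median 267) and had lower medians in treated tumors (88.0 to 170), with 0 of 9 tested genes called and median log2 fold changes from -0.98 to -0.32. The 6 mast cell markers had medians of 29.0 RPKM in vehicle and 40.7 to 77.97 in treated tumors, again with 0 called, while 0, 2, 2 and 3 of them were higher at the unadjusted threshold. Ptprc, the general leukocyte marker, had a median of 17.6 RPKM in vehicle and 17.3 to 22.9 in treated tumors. Markers of T and NK, B, dendritic, epithelial, fibroblast, endothelial, fat, muscle, red blood and milk-producing cells likewise had 0 calls in each comparison by limma. At the unadjusted threshold all 5 milk protein genes were higher with glargine (median log2 fold change 2.62), as were 2 of 5 fat cell markers (median 1.03). Of the 6 epithelial markers 1, 1, 0 and 3 were lower, with a median of -1.36 with IGF1. With insulin 1 of 9 T and NK markers was higher, with all 9 above 0 (median 0.60), as were 1 of 4 dendritic markers (median 0.46) and Ptprc (0.55). With IGF1 1 of 6 fibroblast markers was higher and 1 of 9 neutrophil markers lower, and no further marker of these lists passed the unadjusted threshold against vehicle. The summed level of the 6 epithelial markers ran from 11.2 to 5098 RPKM in vehicle tumors around a median of 364, and had its lowest median, 140 RPKM, in IGF1 tumors.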

How the data were processed

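The authors aligned poly-A Ion Proton reads of each tumor to mouse build GRCm38 with TopHat2 2.0.10 and Bowtie2, counted them per gene with HTSeq 0.6.1 at default settings, and deposited one table of RPKM values, which their methods describe as read counts scaled to library size and gene length through DEXSeq. How reads that fit several places were treated in that table is not given in the sources used here. The authors tested HTSeq counts with DESeq2 1.2.10, and the deposited RPKM table was here analysed on log2(RPKM + 0.5) with limma 3.58.1 in R 4.3.3 (empirical Bayes with intensity trend, 1 fit over all 5 groups of 10 tumors, Benjamini-Hochberg adjustment over 16733 genes of mean RPKM at least 0.5). Fold changes on this scale understate those of low genes. Library sizes of 26.6 to 51.9 M reads were estimated from RPKM steps of 3000 genes of low level (at least 93.4% of values whole), and gene lengths came from GENCODE on GRCm38. The limma and correlation steps were tested on simulated data. The 9 genes and all lists were chosen with earlier results of these data known. Named genes were the 9 members, the 10 genes most alike F13a1 and 3 for each other member, and of each list the 3 of highest mean RPKM and any with adjusted p under 0.05, of which there were 0. One further gene of the macrophage set, one platelet marker and 1 gene list are not reported here. Il34, F13b, the fibrinogen genes and 4 platelet genes are named outside that rule, after their values were seen. Groups come from the sample titles, where one title reads IFG1 and was taken as IGF1. The labels give no batch, and the sequence sample ids in the labels run in order of treatment, so that an effect that follows this numbering and treatment cannot be told apart. Alternatives were other pseudocounts, filters, scalings, covariates and sample sets, of which voom, library size as a covariate, and leaving out 5 tumors or 1 tumor were chosen after seeing the data.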

Additional observations from a re-analysis of the deposited data

Results flagged for a closer look

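Within groups of 10 tumors, 6 of 45 combinations of gene and group had an extreme tumor whose gap to its nearest neighbour exceeded the 95% limit of Dixon's test on log2 values. Chance flags about 1 in 20 groups. The combinations are not independent, since the genes are correlated and share tumors, and the share flagged over all genes was not computed. In the tumor IGF1_160, Csf1 was 26.2 RPKM where the group median was 130 (gap 0.535 of the range), and Mrc1 was 15.2 RPKM where it was 96.0 (gap 0.4998). In the IGF1 tumor titled IFG1_132, Cd68 was 301 RPKM, above a group median of 101 (gap 0.501). In the tumor insulin_13, Lyz2 was 458 RPKM and C1qb 104.8 RPKM, below group medians of 1397 and 471 (gaps 0.478 and 0.476). In the vehicle tumor Untreated_195, Cd163 was 9.18 RPKM, above a group median of 0.809 (gap 0.494), and this tumor was also one of the 5 with high epithelial markers.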

How the results depend on the processing

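Under every alternative run, 0 tested members passed the adjusted threshold in each of the 7 comparisons. Adjusted p-values of Mrc1 (limma) ran from 0.146 to 0.445 for insulin, 0.498 to 0.998 for glargine, 0.266 to 0.606 for X10 and 0.261 to 0.789 for IGF1 over all settings. Of the recomputed log2 fold changes of members, 605 kept their sign and 11 changed it, none of which had passed the test. With the macrophage marker score as a covariate, Lyz2 with glargine was -0.0464, Csf1 with X10 -0.0448, C1qa with X10 -0.0266 and Csf1r with IGF1 -0.0384. With epithelial, adipocyte and muscle scores as covariates, Cd68 was -0.0477 with insulin and -0.0695 with IGF1. With library size as a covariate, Csf1 with X10 was -0.0285. Without the 5 tumors of high epithelial marker level, Cd68 was -0.149 with insulin, -0.0392 with X10 and -0.00250 with IGF1, and Csf1r in X10 and IGF1 against the rest was 0.00144. In that comparison, without these 5 tumors, 1 gene of the lists passed, Igf1 (log2 fold change -0.85, adjusted p = 0.0481 by limma, against -0.62 and 0.288 with all tumors). With all tumors 0.155% of all genes passed. The share without these 5 tumors, a setting chosen after seeing the data, is not given, so no conclusion is drawn from this 1 call. The cause of the changes between settings was not tested. The count of correlated pairs was 15 to 21 of 28 over the alternatives. No paired analysis was possible because the mouse numbers in the labels are not shared between groups. Depth limits Cd163 most, at about 8.49 reads in its lowest tumor.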

Other observations

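The r of Cd68, centred within groups over 50 tumors, was 0.84 to Spi1, the highest of the CSF1 axis, 0.83 to Acp5 (tartrate-resistant acid phosphatase, an enzyme of osteoclasts and some macrophages), the highest of the lysosome list, and 0.79 to the chemokine gene Ccl9, the highest of the scavenger list. The r of C1qb to Acp5 was -0.45, the lowest of its lysosome list. Acp5 ranged from 36.4 RPKM in an IGF1 tumor to 2911 RPKM in a glargine tumor, and Ckb from 3.17 RPKM in an X10 tumor to 606 RPKM in a vehicle tumor, each with wide overlap between groups. These genes were singled out after their values were seen.

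In the 5 tumors of high epithelial marker level, Cd68 lay between rank 40 and rank 50 of the 50 tumors, counted from the highest, Csf1r between rank 37 and rank 47 and Csf1 between rank 31 and rank 49. The other members ranged more widely there, as from rank 1 to rank 45 for Cd163, rank 13 to rank 42 for C1qa and rank 16 to rank 50 for F13a1. The tumor IGF1_158 had the highest F13a1, Mrc1, Csf1r, Lyz2, C1qa and C1qb of all 50.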
